A study of Rattus norvegicus with 6 samples.

Results

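The endothelin and natriuretic peptide system was followed in synovial fibroblast-like cells through 9 genes: Edn1, Ece1, Ednra, Ednrb, Nppc, Nppb, Npr1, Npr2 and Npr3. They were taken by symbol from a table of 17221 transcript rows with 16499 symbols. Nppc and Ednrb were chosen by their own levels under the serum of stimulated animals, so their values under that serum are a description without a test. The remaining 7 members complete both pathways. They were chosen whatever their own values, but with earlier results of these data known. All 9 had a row, and 8 passed a filter on low values, since Nppb stayed at 2 reads or fewer in every library. Of these 8, 6 were not chosen by their own values.

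The cells were grown from the synovium of female Wistar rats with collagen-induced arthritis, a joint disease raised by immunisation, and the labels give no age. Cells, taken as those of 2 rats, were each split over 3 culture media, which gave 6 poly(A) RNA libraries, 2 per condition. The first medium held fetal bovine serum (FBS). The second held serum of untreated animals (MS−). The third held serum drawn on day 18 of a mechanical stimulation by needle, acupuncture in the labels (MS+). All cells were from arthritic donors, and only the serum differed. How many animals gave each serum is not stated. The titles number the replicates, and a replicate is taken as the rat that gave the cells. If serum donors also differed between replicates, that could not be told apart from the rat. The description of the MS− libraries speaks of healthy rats, whereas their title and disease field speak of arthritis. The study's text describes the MS− serum as from untreated animals with induced arthritis, drawn before therapy began. The effect of stimulation therefore cannot be told apart from the time of the draw or from other differences between the serum donors.

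Endothelins are small peptides that are cut from a large precursor by endothelin-converting enzymes and act on the G protein-coupled receptors Ednra and Ednrb. Natriuretic peptides act on Npr1 and Npr2, which are receptors with guanylyl cyclase activity that make cyclic GMP, while Npr3 binds the peptides and takes them into the cell for breakdown. Both systems are best known from the vessel wall. C-type natriuretic peptide, the product of Nppc, and its receptor Npr2 are also known from cartilage and growing bone.

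The DNA just upstream of 4 members is shown because their transcripts differed most between the sera or between the rats. The 250 bases before the annotated start were read from the RefSeq promoter table of assembly GRCr8, which held 8 of the 9 members and had no entry for Npr2. The coordinates of these stretches are on GRCr8, whereas those of the transcripts further on are on rn4. Each stretch is written 5′ to 3′ on the strand of the gene, and capitals mark the motif letters found on either strand. Nppc lies at chr9:94772187-94772436 (minus strand), Ednrb at chr15:87086766-87087015 (minus), Edn1 at chr17:22666688-22666937 (minus) and Npr1 at chr2:178247089-178247338 (minus).
Nppc: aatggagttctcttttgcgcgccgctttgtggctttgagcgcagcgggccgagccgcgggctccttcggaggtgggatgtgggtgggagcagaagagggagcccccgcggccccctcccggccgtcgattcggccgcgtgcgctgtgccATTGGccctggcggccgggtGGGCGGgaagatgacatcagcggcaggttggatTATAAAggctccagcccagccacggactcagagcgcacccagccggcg
Ednrb: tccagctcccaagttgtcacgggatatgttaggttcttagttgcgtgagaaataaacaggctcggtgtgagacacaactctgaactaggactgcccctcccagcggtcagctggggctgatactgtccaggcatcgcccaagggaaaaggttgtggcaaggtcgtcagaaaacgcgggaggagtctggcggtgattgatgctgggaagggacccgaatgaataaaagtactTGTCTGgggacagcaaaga
Edn1: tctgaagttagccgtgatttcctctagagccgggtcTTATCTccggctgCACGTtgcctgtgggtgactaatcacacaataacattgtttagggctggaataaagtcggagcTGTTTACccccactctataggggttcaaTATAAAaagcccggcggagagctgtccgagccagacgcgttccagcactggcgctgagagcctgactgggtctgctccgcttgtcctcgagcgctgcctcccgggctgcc
Npr1: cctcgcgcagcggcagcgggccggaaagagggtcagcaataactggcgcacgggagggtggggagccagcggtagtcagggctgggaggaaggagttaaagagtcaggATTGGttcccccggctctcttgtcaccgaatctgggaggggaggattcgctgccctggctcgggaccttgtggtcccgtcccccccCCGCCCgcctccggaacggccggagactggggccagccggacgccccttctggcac

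The search covered 10 motifs on both strands. The GC box (GGGCGG) was held by 30.5% of all 33469 promoter stretches of this length, the CCAAT box (CCAAT) by 34.0% and the TATA box (TATAAA) by 12.9%. The SMAD element (CAGACA) was held by 17.2%, the hypoxia response core (ACGTG) by 16.6% and the M-CAT element (CATTCC) by 12.1%. The GATA element (AGATAA) was held by 10.3%, the short cAMP response element (TGACGT) by 6.95%, the AP-1 element (TGANTCA) by 6.34% and the FoxO element (GTAAACA) by 3.21%.

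The Nppc stretch was rich in G and C, at 68.8% with 26 CpG sites, beside a median of 51.2% and 5 CpG sites over all stretches. It carried a CCAAT box on the minus strand 101 to 97 bases before the start, a GC box at 81 to 76 and a TATA box at 48 to 43. Ednrb had 53.2% G and C with 10 CpG sites, and 1 SMAD element on the minus strand at 19 to 14 bases as its only match. Nppc and Ednrb thus shared none of the 10 motifs. The Edn1 stretch had a TATA box at 110 to 105 bases and, on the minus strand, a GATA element at 214 to 209, a hypoxia response core at 201 to 197 and a FoxO element at 138 to 132. Npr1 had 68.8% G and C with 20 CpG sites, and on the minus strand a CCAAT box at 142 to 138 and a GC box at 56 to 51. These matches describe letters only.

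The libraries held 5463316 to 5991889 reads, and values are CPM, reads scaled by the authors to a common library size. In a single library 3 reads, taken as the floor of detection, were worth 0.491 to 0.551 CPM, and floors and read intervals cover counting error only. Differences are on the log2(CPM + 1) scale with their standard error (SE), from limma over 9820 features, and a feature was called at a Benjamini-Hochberg adjusted p under 0.05. This scale understates the change of low transcripts. Because the replicates are taken as the same 2 rats in every condition, a second limma fit took the rat as a block. Without the block, the share of all features called was 0.0204% for MS+ against MS−, 9.61% for MS+ against FBS and 4.81% for MS− against FBS. With the block these shares were 10.1%, 28.2% and 20.5%.

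The labelled cell type was checked against marker genes. Of 14 synovial fibroblast markers 12 were tested, with a summed level of 86215 to 113216 CPM, but Dcn and Lum, which encode matrix proteoglycans of fibroblasts, held 0 to 5 reads per library. In MS− against FBS 10 of these 12 had differences below 0 (median -0.35), with 1 called lower (Pdpn) and 6 with the block. In MS+ against FBS 8 of 12 were below 0 (median -0.25), with Pdpn called lower, and with the block 4 higher and 3 lower. In MS+ against MS− 9 of 12 were above 0 (median 0.19), with none called, and 2 higher with the block. The part of these shifts in the members' levels was not tested. With the block, 20.5%, 28.2% and 10.1% of all features were called in these 3 comparisons, and 4.81%, 9.61% and 0.0204% without it. Of 9 endothelial markers with a row, 5 (Cdh5, Tie1, Cldn5, Emcn and Plvap) had no read, and the sum was 0.723 to 2.95 CPM. Of 12 macrophage markers 8 had no read, Ptprc and Cd163 among them, and the sum was 17.9 to 25.8 CPM. Smooth muscle and pericyte markers summed to 13290 to 15118 CPM, with 10 of 11 tested, Rgs5 at 0 and no row for Acta2. In MS+ against FBS 8 of 10 were below 0, with Myh11 called higher, and with the block 1 higher and 2 lower. In MS− against FBS 7 of 10 were below 0, with none called, and with the block 2 higher and 2 lower. Between MS+ and MS− none was called in either fit. Their part in the members' levels was not tested either. In these bulk libraries fewer cells of a type and less RNA per cell cannot be told apart.

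Among the 6 members open to test, none was called between MS+ and MS− without the block, and 1 with it, Edn1, which was lower. In MS+ against FBS, 1 of 6 was called without the block (Npr1, higher) and 4 with it (Npr1 and Ece1 higher, Ednra and Edn1 lower). In MS− against FBS none of the 6 was called without the block and 2 with it (Ece1 higher, Edn1 lower), while Ednrb, chosen by its own values, is given apart. The median difference of the 6 was -0.06, 0.18 and 0.12 in these comparisons, beside medians of -0.0058, 0.00078 and 0.014 over all features. Beside the member counts, 0.0204%, 9.61% and 4.81% of all features were called, and 10.1%, 28.2% and 20.5% with the block. Each serum enters 2 of the 3 comparisons, so the sets of values share libraries and are not independent.

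**Figure D1:**
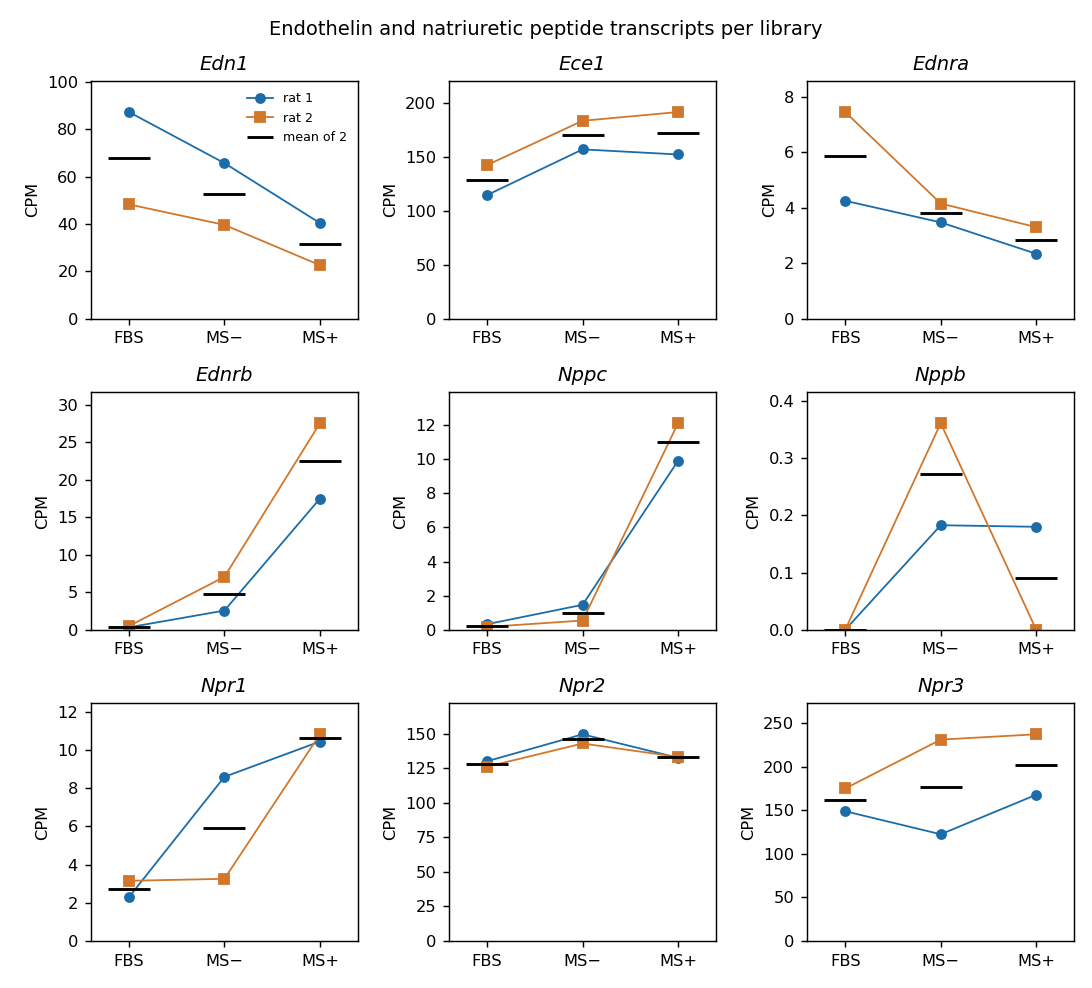
CPM of each member (vertical axis, linear, from 0, a different scale in each panel) in the 3 sera, with circles for rat 1, squares for rat 2, lines joining the libraries of a rat and black bars for the mean of 2. Edn1 descended from FBS to MS+ in both rats, Ednrb and Nppc were highest in MS+, and Nppb stayed between 0 and 0.362 CPM.

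Edn1 (NM_012548, rn4 chr17:28303886-28309775, minus strand) encodes endothelin-1, the peptide that both endothelin receptors bind. Its level was 87.3 and 48.2 CPM in FBS (rat 1 and rat 2), 65.7 and 39.6 in MS−, and 40.4 and 22.6 in MS+. In both rats the level stepped down from FBS to MS− to MS+, but rat 1 was 1.81, 1.66 and 1.79 times rat 2 in the 3 sera. The MS− range therefore overlapped both others, and MS+ lay wholly below FBS. Edn1 was the only tested member that was higher in rat 1 in every condition, whereas 4 members (Ednra, Ednrb, Ece1 and Npr3) were higher in rat 2 in every condition.

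Within each rat the MS+ to MS− difference of Edn1 was -0.69 in rat 1 and -0.78 in rat 2. The mean difference was -0.74 (SE 0.38, limma adjusted p = 0.443), and with the rat as a block it was the same size with an SE of 0.11 and an adjusted p of 0.000693. Against FBS the MS+ difference was -1.08 (SE 0.38, limma adjusted p = 0.125, and 3.77e-06 with the block), at -1.09 and -1.06 in the 2 rats. The MS− to FBS difference was -0.34 (SE 0.38, limma adjusted p = 0.667, and 0.0393 with the block). Edn1 was thus called in all 3 comparisons with the block and in none without it.

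Ece1 (NM_053596, rn4 chr5:156635656-156735778, plus strand) encodes the endothelin-converting enzyme that releases the active peptide. It stood at 115 and 142 CPM in FBS, 157 and 183 in MS−, and 152 and 192 in MS+. Both rat sera lay above FBS and overlapped each other. The difference between MS+ and MS− was 0.01 (SE 0.16, limma adjusted p = 0.988). Against FBS it was 0.42 for MS+ (SE 0.16, limma adjusted p = 0.148, and 0.00175 with the block) and 0.41 for MS− (SE 0.16, limma adjusted p = 0.205, and 0.00289 with the block). With the block Ece1 was thus higher under both rat sera while Edn1 was lower under both.

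Ednra (NM_012550, rn4 chr19:32042366-32108153, plus strand) encodes the endothelin A receptor, which mediates contraction in vascular smooth muscle. The libraries held 26 and 45 reads in FBS, 19 and 23 in MS−, and 13 and 18 in MS+, which is 4.26 and 7.46, 3.48 and 4.16, and 2.34 and 3.30 CPM. The 3 groups did not overlap, in the order FBS, MS−, MS+. The difference between MS+ and FBS was -0.81 (SE 0.30, limma adjusted p = 0.130, and 0.0200 with the block). Neither MS+ against MS− (-0.34, SE 0.30, limma adjusted p = 0.659) nor MS− against FBS (-0.47, SE 0.30, limma adjusted p = 0.420) was called in either fit.

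Ednrb (NM_017333, rn4 chr15:87893143-87898691, minus strand) encodes the endothelin B receptor, known from endothelium, neural crest derivatives and melanocytes. The FBS libraries held 2 and 3 reads (0.327 and 0.497 CPM), the MS− libraries 14 and 39 (2.56 and 7.05 CPM), and the MS+ libraries 97 and 150 (17.5 and 27.5 CPM). Both rats rank the sera alike, and no groups overlap, but this ranking of MS+ is what the gene was chosen by. The MS+ to MS− difference was 2.10 (SE 0.41), with 2.38 in rat 1 and 1.83 in rat 2, and the difference to FBS was 4.03 (SE 0.41). Pooled over both rats, 247 reads in MS+ faced 53 in MS−, a CPM ratio of 4.66, and 5 in FBS, a ratio of 54.5. Pooling leaves out the spread between the rats.

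The MS− to FBS comparison of Ednrb did not use the MS+ libraries as a group, although the MS− libraries also entered the contrast behind the choice, so its p is not independent of that choice. There Ednrb rose by 1.93 (SE 0.41, limma adjusted p = 0.0499, and 6.73e-05 with the block), by 1.42 in rat 1 and 2.43 in rat 2. In reads, 53 against 5 gave a ratio of 11.7 (95% exact interval 4.71 to 37.5). The value without the block sat at the threshold, and the call was lost under 11 of 17 alternatives. The limma adjusted p was 0.230 and 0.121 without the FBS library of rat 1 and rat 2, 0.176 without the MS− library of rat 2, and 0.0861 without either MS+ library.

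Markers of glia and melanocytes, known sites of Ednrb, were summed as well. Of 11 with a row, 7 were below the filter and Sox10, Mbp and Tyr had no read. Their sum, mostly of S100b at 19.8 to 37.1 CPM, was 29.0 and 30.3 CPM in FBS, 43.4 and 38.3 in MS−, and 48.3 and 39.8 in MS+. Tyrp1, a melanosomal enzyme, held 0.982 and 0.332 CPM in FBS, 0.549 and 2.17 in MS−, and 3.06 and 7.34 in MS+. Its MS+ to MS− difference was 1.39 (SE 0.48). Tyrp1 passed the filter on low values through its MS+ libraries alone, so no test is given for it. In rat 2 the rise of Tyrp1 from MS− to MS+ was larger than that of the sum, so the other markers together were lower there. Of the 4 markers past the filter, Tyrp1 included, 2 had MS+ to MS− differences above 0 and 2 below 0 (median 0.10). Against FBS, 3 of 4 were above 0 in MS+ (median 0.33) and 3 of 4 in MS− (median 0.49). No marker was called without the block. Tyrp1 aside, only S100b was called with it, higher against FBS in both rat sera. There 28.2% and 20.5% of all features were called with the block, and 9.61% and 4.81% without it. The part of such cells in the Ednrb level was not tested.

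**Figure D2:**
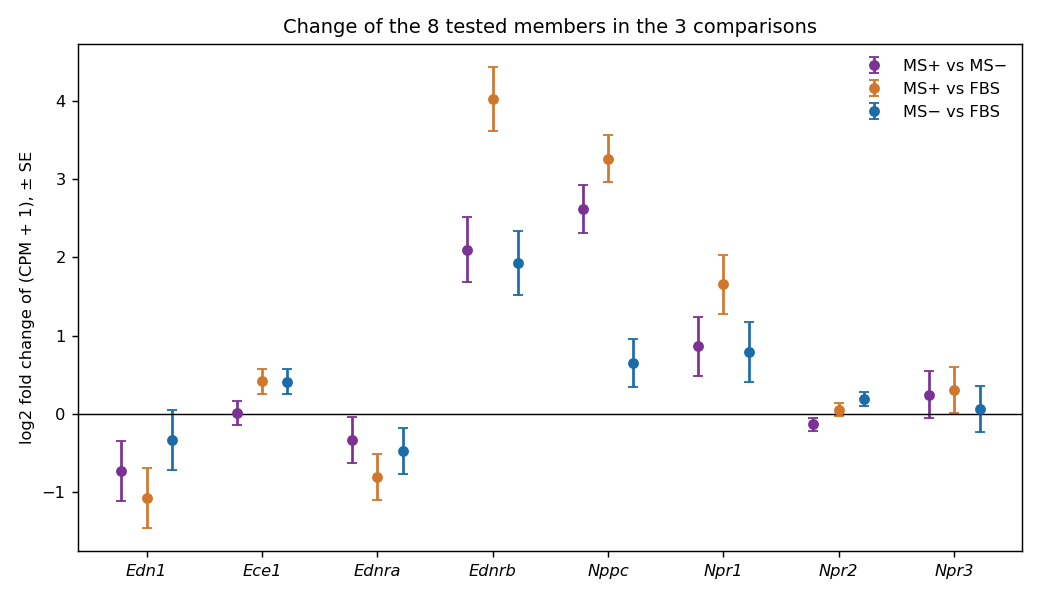
Difference of each of the 8 tested members (horizontal axis) on the log2(CPM + 1) scale (vertical axis), with points for the limma estimate without the block and bars for ± 1 SE, in purple for MS+ against MS−, orange for MS+ against FBS and blue for MS− against FBS. The MS+ points of Nppc and Ednrb, at 2.10 to 4.03, are those the genes were chosen by, and Npr2 lies within 0.19 of zero in every comparison.

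Nppc (NM_053750, rn4 chr9:85434254-85438454, minus strand) encodes C-type natriuretic peptide, the main ligand of Npr2. It was under the floor in FBS, with 2 and 1 reads (0.327 and 0.166 CPM). In MS− it held 8 and 3 reads (1.46 and 0.542 CPM), so rat 2 was at the floor there too. In MS+ the libraries held 55 and 66 reads (9.91 and 12.1 CPM), above all others in both rats, which is the value Nppc was chosen by. The MS+ to MS− difference was 2.62 (SE 0.30), with 2.15 in rat 1 and 3.09 in rat 2. Pooled, 121 reads faced 11, a CPM ratio of 11.0.

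Against FBS the MS+ difference of Nppc was 3.27 (SE 0.30), and 121 reads faced 3, a ratio of 44.5. For MS− and FBS, 11 reads faced 3, a ratio of 4.05, and the difference was 0.65 (SE 0.30). Nppc passed the filter on low values through its MS+ libraries alone, so no test is given for it in any comparison.

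Known cartilage genes were looked up because Nppc is known from chondrocytes. Of 7 chondrocyte markers with a row 2 were tested (Acan and Matn3), Matn1 had no read, and Col2a1, the cartilage collagen, held 0 to 4 reads per library. Sox9, Comp, Col11a1, Col10a1 and Snorc had no row. Acan, which encodes aggrecan, stood at 2585 and 3012 CPM in FBS, 1453 and 1827 in MS−, and 2671 and 2538 in MS+. Its MS+ to MS− difference was 0.68 (SE 0.15, limma adjusted p = 0.147, and 0.000693 with the block), and in MS− it fell by 0.78 against FBS (SE 0.15, limma adjusted p = 0.0409). Matn3 was not called in any comparison or fit. Of these 2 genes, 2 were above 0 in MS+ against MS−, 1 in MS+ against FBS and 0 in MS− against FBS. In the same order 0.0204%, 9.61% and 4.81% of all features were called, and 10.1%, 28.2% and 20.5% with the block. The part of chondrocyte-like cells in the Nppc level was not tested.

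Nppb (NM_031545, rn4 chr5:165062348-165063650, plus strand) encodes the B-type peptide of the heart. It held no read in FBS, 1 and 2 reads in MS−, and 1 and 0 reads in MS+. All libraries were under the floor, so no comparison was made.

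Npr1 (NM_012613, rn4 chr2:182724916-182740242, minus strand) encodes the cyclase receptor of the atrial and B-type peptides. It held 14 and 19 reads in FBS (2.29 and 3.15 CPM), 47 and 18 in MS− (8.60 and 3.25 CPM), and 58 and 59 in MS+ (10.4 and 10.8 CPM). The MS+ libraries lay close together and above all others, whereas the MS− libraries of the 2 rats lay far apart. Npr1 rose by 1.65 in MS+ against FBS (SE 0.38, limma adjusted p = 0.0422, and 0.000665 with the block), by 1.80 in rat 1 and 1.51 in rat 2. It was the only member not chosen by its values that was called without the block. The call was lost in 5 of 17 alternatives, including without either FBS library (adjusted p = 0.174 and 0.107 without rat 1 and rat 2) and without either MS+ library (0.170 and 0.152).

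The rats differed in where the step of Npr1 fell. From FBS to MS− the difference was 1.54 in rat 1 and 0.04 in rat 2, and from MS− to MS+ it was 0.25 in rat 1 and 1.48 in rat 2. The mean differences were 0.79 (SE 0.38, limma adjusted p = 0.292, and 0.0742 with the block) and 0.87 (SE 0.38, limma adjusted p = 0.356, and 0.0785 with the block). Neither was called. With 1 library per rat and serum, the difference between the rats has no replicate check.

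Npr2 (NM_053838, rn4 chr5:60107563-60127960, plus strand) encodes the cyclase receptor of C-type natriuretic peptide. Its level was 130 and 126 CPM in FBS, 149 and 143 in MS−, and 132 and 133 in MS+. No comparison was called in either fit: the difference was -0.14 for MS+ against MS− (limma adjusted p = 0.524), 0.05 for MS+ against FBS (0.738) and 0.19 for MS− against FBS (0.264), with an SE of 0.09 each. In the same comparisons its ligand transcript Nppc differed by 0.65 to 3.27.

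Npr3 (NM_012868, rn4 chr2:61278264-61341460, minus strand) encodes the clearance receptor. It stood at 149 and 175 CPM in FBS, 122 and 231 in MS−, and 168 and 237 in MS+. Groups overlapped in all 3 comparisons, and the rats went apart from FBS to MS−, with -0.28 in rat 1 and 0.40 in rat 2. Differences of 0.24, 0.30 and 0.06 (SE 0.30 each) for MS+ against MS−, MS+ against FBS and MS− against FBS were not called (limma adjusted p = 0.761, 0.556 and 0.937, and 0.223, 0.0700 and 0.783 with the block).

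Ratios of 2 transcripts within 1 library need no scaling between libraries, although their size depends on transcript length, so they are compared across sera only. Ednrb over Ednra was 0.0769 and 0.0667 in FBS, 0.737 and 1.70 in MS−, and 7.46 and 8.33 in MS+. The ratio stepped up in both rats, mostly through Ednrb, which was chosen by its own values under MS+. Ece1 over Edn1 was 1.31 and 2.95 in FBS, 2.39 and 4.63 in MS−, and 3.77 and 8.49 in MS+. It climbed in each rat while the rats stayed apart.

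Npr1 over Npr2, the pair of cyclase receptors, was 0.0176 and 0.0250 in FBS, 0.0575 and 0.0228 in MS−, and 0.0789 and 0.0814 in MS+. The rats were close in MS+ and apart in MS−. Npr3 over Npr2 was 1.14 and 1.39 in FBS, 0.819 and 1.62 in MS−, and 1.27 and 1.78 in MS+, without an order of the sera that both rats share.

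**Figure D3:**
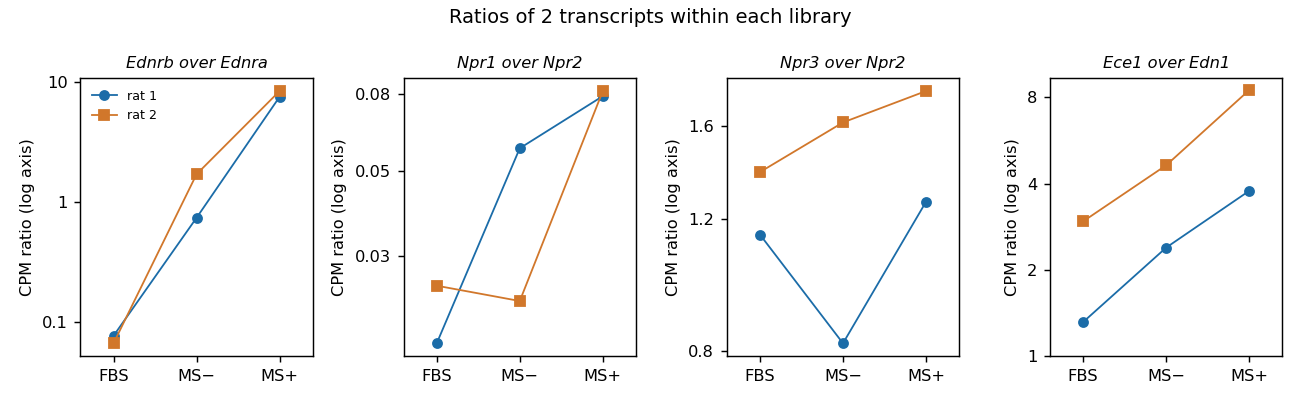
Ratio of the CPM of 2 transcripts within each library (vertical axis, log scale, no unit) in the 3 sera, with circles for rat 1 and squares for rat 2. Ednrb over Ednra goes from 0.0667 to 8.33 over the libraries, Ece1 over Edn1 climbs in parallel in the rats, and Npr1 over Npr2 steps between different sera in each rat.

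Other genes of both pathways were read from fixed lists. Edn2, Edn3 and Kel, the other endothelins and a protease that acts on them, had no read. Ece2, a second converting enzyme, and Mme, the peptidase neprilysin, were tested and not called in any comparison or fit. Ece2 stood at 20.9 to 33.8 CPM and Mme at 54.3 to 104 CPM over the 6 libraries. Edn1 was thus the one endothelin with reads.

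Of 6 further natriuretic peptide genes 3 were tested (Furin, Pcsk6 and Ide). Nppa, the atrial peptide, had 2 reads in 1 MS− library, Corin, which processes it, had 1 read in the other, and Ostn, a ligand of Npr3, had none. Pcsk6, a proprotein convertase, held 70.6 and 61.5 CPM in FBS, 35.9 and 38.3 in MS−, and 42.0 and 35.4 in MS+. It fell by 0.76 in MS+ against FBS (SE 0.13, limma adjusted p = 0.0206) and by 0.81 in MS− against FBS (SE 0.13, limma adjusted p = 0.0226). Furin, a convertase of the C-type precursor, stood at 252 to 297 CPM and was not called.

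Of 20 genes of cyclic GMP signalling 11 were tested and none was called without the block in any comparison. With the block 1 was called higher and 1 lower between MS+ and FBS, and none elsewhere. Over all features 28.2% were called between MS+ and FBS with the block, and 9.61% without it. Pde5a, which breaks down cyclic GMP, was higher by 0.67 (SE 0.26, limma adjusted p = 0.157, and 0.0336 with the block). Gucy1a3, a subunit of the soluble cyclase that senses nitric oxide, was lower at -0.80 (SE 0.39, limma adjusted p = 0.239, and 0.0254 with the block). Pde2a, Gucy2d, Nos1 and Nos2 had no read. Median differences of the list were 0.07, -0.03 and -0.04 in MS+ against MS−, MS+ against FBS and MS− against FBS.

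Of 30 genes of Gq and calcium signalling, the route downstream of endothelin receptors, 26 were tested. Between MS+ and MS− none was called without the block, and with it 3 were lower (Gna13, Itpr1 and Trpc6). Against FBS, 3 were higher and 3 lower in MS+, and with the block 4 and 8. In MS−, 2 were higher and 1 lower against FBS, and with the block 5 and 2. Median differences were -0.15, -0.12 and 0.00. For comparison, 0.0204%, 9.61% and 4.81% of all features were called without the block, and 10.1%, 28.2% and 20.5% with it.

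Grk5, a kinase that desensitises receptors, held 16.4 and 19.1 CPM in FBS, 39.1 and 46.3 in MS−, and 55.9 and 54.5 in MS+. It rose by 1.59 in MS+ (SE 0.14, limma adjusted p = 0.00342) and by 1.22 in MS− (SE 0.14, limma adjusted p = 0.00604), both against FBS. Rock2, a kinase that promotes actomyosin contraction, rose by 1.13 in MS+ (limma adjusted p = 0.0159) and by 1.07 in MS− (limma adjusted p = 0.0257). Plcb1, a phospholipase C driven by Gq, rose by 1.42 in MS+ against FBS (SE 0.34, limma adjusted p = 0.0473), from 1 and 5 reads in FBS. Trpc6, a cation channel opened by receptor signalling, held 18.3 and 14.6 CPM in FBS, 14.5 and 13.9 in MS−, and 10.8 and 4.22 in MS+. Its differences were -0.95 against MS− and -1.14 against FBS (limma adjusted p = 0.299 and 0.0974, and 0.0156 and 0.00162 with the block). Rgs5 had no read.

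Of 28 genes of other vasoactive peptide systems 27 had a row and 12 were tested. None was called between MS+ and MS− without the block and 2 were higher with it, Adm and Agtr1a, whose reads may be split with its near copy Agtr1b. Against FBS, 2 were higher in MS+ (Adm and Vipr2), 7 with the block, and none was lower in either fit. In MS− none was called against FBS, and with the block 4 were higher and 1 lower. Median differences were 0.16, 0.67 and 0.21. The shares of all features called were 0.0204%, 9.61% and 4.81%, and 10.1%, 28.2% and 20.5% with the block. Agtr2, Kng1, Uts2r and Tacr1 had no read.

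Adm, which encodes the vasodilator adrenomedullin, held 8.35 and 5.31 CPM in FBS, 6.77 and 6.33 in MS−, and 14.8 and 19.3 in MS+. It rose by 1.22 in MS+ against FBS (SE 0.25, limma adjusted p = 0.0293), and its MS+ to MS− difference was 1.25 (SE 0.25, limma adjusted p = 0.126, and 0.00244 with the block). Vipr2, a receptor of vasoactive intestinal peptide, held 33.6 and 14.9 CPM in FBS, 83.2 and 50.1 in MS−, and 77.5 and 69.9 in MS+. It rose by 1.67 in MS+ against FBS (SE 0.37, limma adjusted p = 0.0399). Ramp3, a partner of the adrenomedullin receptor, was called in MS− against FBS with the block alone (-1.01, SE 0.72, limma adjusted p = 0.479, and 0.0386 with the block), where rat 1 had no read in MS−.

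**Figure D4:**
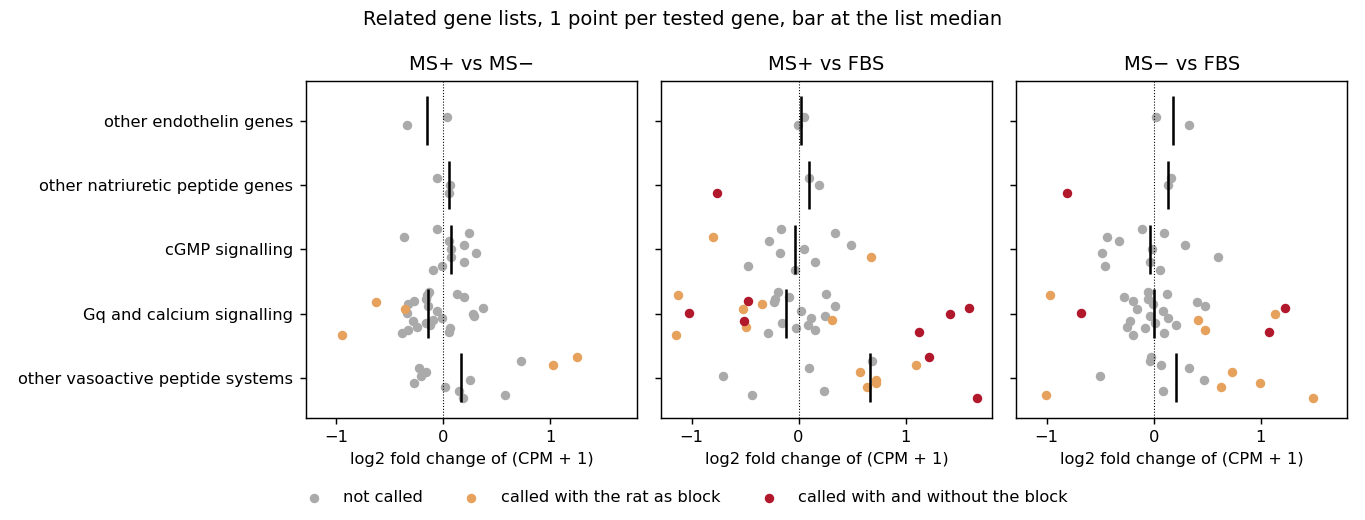
Difference of each tested gene of 5 related lists on the log2(CPM + 1) scale (horizontal axis), 1 panel per comparison, with grey points for genes not called, orange for genes called with the rat as block alone, red for genes called in both fits and a bar at the list median. No gene of these lists was called in both fits between MS+ and MS−, while Grk5, at 1.59, and Vipr2, at 1.67, lie furthest right between MS+ and FBS.

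The features whose values over the 6 libraries were most like those of Nppc, by Pearson's r of log2(CPM + 1), were Cd2bp2 (r = 0.995), Adamts14 (0.991), Acp2 (0.990), Aloxe3 (0.988) and Fam59b (0.987). Adamts14, a procollagen protease, stood at 21.9 and 19.7 CPM in FBS, 23.2 and 22.2 in MS−, and 38.7 and 40.6 in MS+. Aloxe3 and Fam59b were near the floor, with at most 1.47 and 1.80 CPM. Ednrb came 299th for Nppc, with r = 0.893, and Nppc came 418th for Ednrb.

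Closest to Ednrb were Pak3 (r = 0.998), Hspb6 (0.997), Ppap2b (0.994), Exd2 (0.994) and Rrn3 (0.994). Hspb6, a small heat shock protein of muscle, stood at 96.3 and 96.5 CPM in FBS, 132 and 159 in MS−, and 223 and 260 in MS+. The lists of 5 share no gene, and with 6 libraries and 9820 features such values of r carry no test.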

How the data were processed

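Poly(A) RNA of the 6 cultures was sequenced, with 2 replicates, taken as 2 rats, for each of 3 sera. The authors aligned reads to rn4 (per their processing notes with Bowtie2 2.1.0), counted them per transcript with HTSeq 0.5.4p3 in its intersection-nonempty mode, and scaled them with TMM. The deposited signal is this normalised CPM. Whether counting used strand is not given in the sources used here, so antisense reads cannot be told apart. No member overlaps another row. Division by the value of 1 read gave whole reads for 100% of values (tolerance 1e-06).

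Features at 1 CPM or more in both libraries of at least 1 group were kept (9820). Differences were tested with limma 3.58.1 (R 4.3.3) as a two-sided moderated test with a trended prior (lmFit and eBayes). The values were log2(CPM + 1) of all 6 libraries, serum was the only term, and p-values were adjusted over all features by Benjamini-Hochberg. The planned limma-voom for raw counts was run as an alternative, since the files hold a normalised unit. edgeR 4.0.16 (quasi-likelihood) and DESeq2 1.42.0 were run on the recovered reads.

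The titles number the replicates, and a number is taken as the same rat in each group, so replicate numbers pair the libraries. The rat 2 to rat 1 difference correlated across features by 0.62 between FBS and MS−, 0.49 between FBS and MS+ and 0.59 between MS− and MS+. Nothing says that cultures were otherwise repeated, so p-values measure only the spread between these libraries. Members and lists were chosen with earlier results of these data known. All 9 members are named, of each list at most the 4 genes with the largest called difference and those at 0 (some are not reported here), and for Nppc and Ednrb the 5 nearest features. The table gives transcript spans without exons, so levels were not compared between genes. RefSeq's GRCr8 table was used for promoter sequence only.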

Additional observations from a re-analysis of the deposited data

How the results depend on the processing

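Over the member differences, those of Nppc and Ednrb included, 17 alternatives gave 408 values. Of these, 352 stayed the same, 16 lost a call, 12 gained one, 9 turned the direction and 19, of genes without a test, moved by more than the spread between replicates. Staying the same means the same direction and side of the threshold. For Nppc and Ednrb under MS+ it means the same direction and a move within that spread. The 17 values of Nppc between MS− and FBS all stayed the same by the first rule, which is not read as a test. With library totals in place of TMM the Ece1 difference between MS+ and MS− was -0.00853, the one change of direction outside the fits that left out a library. Leaving out 1 library in turn gave -0.156 to 0.17 for that value, -0.76 to 0.0790 for Edn1 between MS− and FBS, -0.211 to 0.70 for Npr3 between MS+ and MS−, and -0.396 to 0.52 for Npr3 between MS− and FBS. None of these was called. In the same fits Ednrb between MS+ and MS− was 1.51 to 2.69 and Nppc 2.28 to 2.96.

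The counts below are given in the order MS+ against MS−, MS+ against FBS, and MS− against FBS. Features called were 2, 944 and 472 (1446, 2703 and 2074 at an unadjusted p under 0.05). Without a filter they were 0, 586 and 255, with the rat as replicate block 987, 2773 and 2011, with limma-voom 4, 912 and 437, and with limma-voom and the block 1014, 2812 and 2047. edgeR called 3, 944 and 464, DESeq2 123, 811 and 535, and fits on only the 4 libraries compared 0, 609 and 278. Leaving out 1 library gave 0 in the first comparison, 25 (without MS+ replicate 1) to 602 in the second, and 105 (without FBS replicate 1) to 280 in the third, with fewer samples in each fit.

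Members called were 0, 1 and 1, where the third count is over all 8 members past the filter and its call is Ednrb. Nppc is among these 8, but its place in that count is not read as a test. Without a filter they were 0, 0 and 0, and with the replicate block, in limma or limma-voom, 1, 4 and 3. DESeq2 size factors, library totals, limma-voom without the block, only the 4 libraries compared and the sum of all rows of a symbol each gave 0, 1 and 0. There the adjusted p of Ednrb between MS− and FBS was 0.0502 to 0.136. Leaving out 1 library gave 0, 0 to 1 and 0 to 1. With 2 libraries per group and 1 to 3 reads for Nppc and Ednrb in FBS, their folds against FBS rest on few reads. The fold of Nppc between MS+ and MS− also rests on few reads, 8 and 3 in MS−.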

Other observations

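Agtr1a, which encodes the angiotensin II type 1a receptor, separated the rats more than the sera. It held 2.29 and 54.4 CPM in FBS (rat 1 and rat 2), 2.20 and 61.8 in MS−, and 7.39 and 98.4 in MS+, so that rat 2 was 23.7, 28.2 and 13.3 times rat 1. The MS+ to MS− difference was 1.03 (SE 1.87, limma adjusted p = 0.857, and 0.00236 with the rat as a block). Agtr1b is a near copy, so the split of reads between them is uncertain. Hapln1, a cartilage link protein gene, held no read in any library of rat 1 and 18, 24 and 34 reads in the FBS, MS− and MS+ libraries of rat 2. Both genes were singled out after their values were seen.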
